A study of Mus musculus with 11 samples.

Results

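The genes of the NF-κB core were measured in the lungs of mice with resected 4T1-luc2 tumors. They were 8 of the 770 genes of the deposited table, chosen by name: the subunits Nfkb1, Nfkb2, Rel, Rela and Relb, the inhibitors Nfkbia and Tnfaip3, and the kinase Ikbkb. The 11 lungs came from 8-week-old BALB/c females injected in the mammary fat pad with 4T1-luc2, a breast carcinoma cell line of this strain that carries luciferase and seeds the lung. All 11 mice had the primary tumor removed on day 13. The 5 hIgG1 mice (mice 3, 4, 6, 7 and 8) received a control human antibody, and the 6 αChemR23 mice (antiChemR23 in the labels, mice 9, 10, 13, 14, 15 and 16) an agonist antibody against ChemR23, a receptor through which resolvins and chemerin act. Each antibody was injected into the peritoneum at 1 mg/kg, with 3 injections per week between day 7 and day 28. The design text gives 7 αChemR23 and 4 hIgG1 mice, where the labels give 6 and 5. The labels were followed here, and every difference below rests on them. Which mouse accounts for the other group sizes is not stated. Lungs were taken at euthanasia and digested into single cells before RNA extraction, and neither the day of collection nor the metastatic load is stated per mouse, and they cannot be told apart from the treatment.

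NF-κB is a family of dimeric transcription factors that resting cells hold in the cytoplasm. In the canonical pathway, signals from TNF, IL-1 or Toll-like receptors reach the IKK complex, whose catalytic subunit IKKβ (Ikbkb) marks the inhibitor IκBα (Nfkbia) for destruction and frees dimers of p50 (from Nfkb1), RelA (Rela) and c-Rel (Rel). In the non-canonical pathway, downstream of receptors such as CD40 or LTβR, the precursor of p52 (from Nfkb2) is processed and pairs with RelB (Relb). A20 (Tnfaip3) is a ubiquitin-editing enzyme that shuts the pathway down. Since the pathway is switched by protein modification and destruction, the level of these RNAs is not a measure of NF-κB activity. Several of these genes, among them Nfkbia and Tnfaip3, are themselves targets of NF-κB.

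The κB consensus, the DNA motif that these dimers bind, was searched on both strands in windows of 300 bases around gene starts, from 250 bases before to 50 bases after the start (RefSeq, GRCm38.p6). The stretches below show such matches in the members, with 10 bases on each side and the motif in capitals, read 5′ to 3′ on the strand of the gene.
Nfkb2, chr19:46304688-46304717, plus strand, motif from 39 bases before the start: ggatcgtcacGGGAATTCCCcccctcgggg
Nfkb2, a further start, chr19:46305695-46305724, plus strand, motif from 10 bases after the start: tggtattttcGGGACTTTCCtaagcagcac
Rel, chr11:23771042-23771071, minus strand, motif from 92 bases before the start: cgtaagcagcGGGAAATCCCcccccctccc
Nfkbia, chr12:55492657-55492686, minus strand, motif from 29 bases before the start: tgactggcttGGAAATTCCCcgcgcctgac
Tnfaip3, chr10:19015403-19015432, minus strand, motif from 12 bases before the start: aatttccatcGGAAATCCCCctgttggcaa
Of the members, 5 matched the sequence table, with 8 windows, and 6 of these windows held a match (75%), against 8.46% of all 32851 windows. Nfkb2 held a match in each of its 3 windows, 2 of which overlap, while the window of Rela held none. A match describes these letters and no binding was measured.

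RNA was counted with nCounter probes, which carry color codes and need no amplification, and the authors deposited log2 normalized counts. The values held an estimated 590856 to 680799 raw counts per mouse, and a gene was tested where its mean reached 20 normalized counts, which held for 657 genes and all 8 members. The members had 164 to 902 raw counts per mouse, well above the lowest value of each mouse (8.85 to 16.2 normalized counts). Markers of lung vessels were strong in every mouse: 6 endothelial markers summed to 17887 to 22029 normalized counts and 3 epithelial or carcinoma markers to 4543 to 6320. The 8 neutrophil markers had sums of 75238 to 128165 normalized counts under hIgG1 and of 36816 to 162641 under αChemR23. With αChemR23, means were higher for all 6 tested B cell markers (4 with an unadjusted limma p under 0.05) and lower for all 10 T cell markers (0 with such a p). They were also higher for 8 of 11 macrophage, 4 of 5 NK cell, 2 of 3 dendritic cell, 5 of 6 endothelial and 3 of 3 epithelial markers, and lower for 8 of 8 neutrophil markers. An unadjusted limma p under 0.05 was found among these for 1 macrophage marker, which was lower, and 1 endothelial marker, which was higher. Of all tested genes, 57.4% had a higher and 42.6% a lower mean, and 7.15% and 2.74% had one with such a p. No marker (0) had an adjusted limma p under 0.05. The mean log2 level of the 10 T cell markers was 6.84 in hIgG1 mouse 8 and 5.08 to 5.85 in the other hIgG1 mice. Under αChemR23 it was 5.23 to 5.97, so the lower T cell means lean on hIgG1 mouse 8. In such tissue RNA, fewer cells of a type and less RNA per cell cannot be told apart.

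None of the 8 members differed between αChemR23 and hIgG1 mice beyond the spread between mice. By limma, 0 members passed an adjusted p of 0.05 and 0 an unadjusted p of 0.05, where 0% and 9.89% of the 657 tested genes did. The largest differences were a lower mean of Nfkbia (log2 difference -0.19) and a higher mean of Rel (0.14). A higher mean in αChemR23 mice was found for 6 members and a lower one for 2, where 57.4% and 42.6% of all tested genes had one. The median log2 difference was 0.05 over the members and 0.03 over the tested genes, and the median size of the difference 0.10 and 0.12. In every member the groups overlapped, while they did not for 1.07% of the tested genes.

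**Figure D1:**
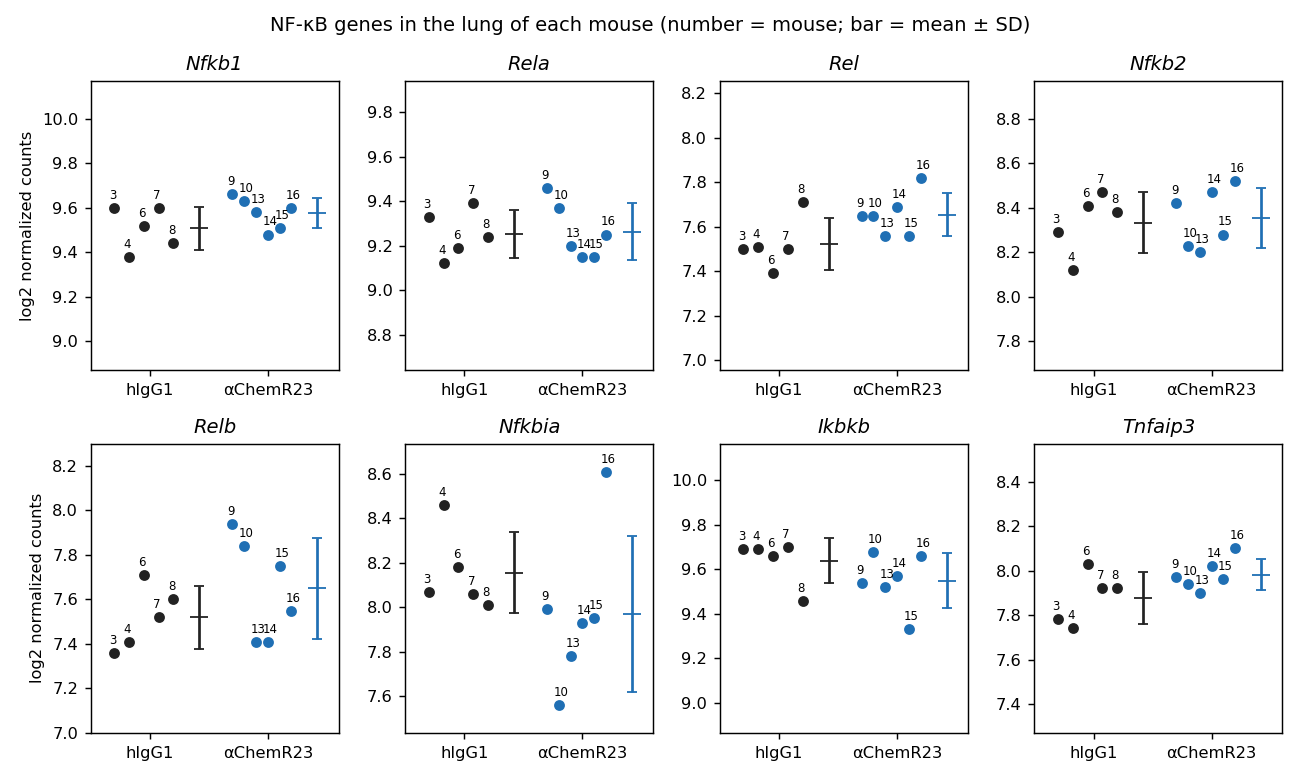
Level of each member in log2 normalized counts (y axis) in each of 5 hIgG1 and 6 αChemR23 mice, with the mouse number above each point and the mean ± SD beside each group. Nfkbia spread widely, from 7.56 in αChemR23 mouse 10 to 8.61 in αChemR23 mouse 16, while Nfkb1 and Tnfaip3 lay close together in the 2 groups.

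Of the canonical subunits, Nfkb1 encodes the precursor p105 from which p50 is made. It was at 9.60, 9.38, 9.52, 9.60 and 9.44 log2 normalized counts in hIgG1 mice 3, 4, 6, 7 and 8, and at 9.48 to 9.66 (median 9.59) in αChemR23 mice. The 3 highest αChemR23 mice lay above all hIgG1 mice, and none lay below the lowest. The lowest of these 3, mouse 16, was at 9.60 like hIgG1 mice 3 and 7, and counting alone gives an SD of 0.05. The means were 9.51 ± 0.10 (SD, n = 5) and 9.58 ± 0.07 (SD, n = 6), a log2 difference of 0.07 with a 95% interval of -0.07 to 0.21 (adjusted p = 0.709 from limma). Without hIgG1 mouse 4 it was 0.04. Rela encodes RelA, the subunit with the main transactivating function of the canonical dimer. It was at 9.33, 9.12, 9.19, 9.39 and 9.24 in the hIgG1 mice, and at 9.15 to 9.46 (median 9.23) in αChemR23 mice. The αChemR23 mice covered nearly the same range, with only mouse 9 above the highest hIgG1 mouse. The log2 difference was 0.01, with a 95% interval of -0.16 to 0.18 (adjusted p = 0.965 from limma), and its sign turned with equal medians (-0.013) and quantile normalization (-0.030).

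Rel encodes c-Rel, a subunit known for its role in lymphocytes and in the expression of Il12b by macrophages. It was at 7.50, 7.51, 7.39, 7.50 and 7.71 in the hIgG1 mice, and at 7.56 to 7.82 (median 7.65) in αChemR23 mice. All αChemR23 mice lay above 4 of the 5 hIgG1 mice, and hIgG1 mouse 8 lay within the αChemR23 range. The means were 7.52 ± 0.11 (SD, n = 5) and 7.66 ± 0.10 (SD, n = 6), a 1.10-fold difference with a 95% interval of 0.973 to 1.24 (log2 difference 0.14, adjusted p = 0.510 from limma). The exact two-sided permutation test of this gene gave p = 0.0563, and its adjusted p over all tested genes did not pass 0.05. Without hIgG1 mouse 8 the log2 difference was 0.18 (unadjusted p = 0.0459, adjusted p = 0.594 from limma). This mouse also had the highest T cell marker score of the 11 (6.84, against 5.08 to 5.97 in the others). Over the 11 mice, the T cell score (the mean log2 level of the 10 markers) and Rel had r = 0.483 (permutation p = 0.132, adjusted p = 0.742 over 64 relations of markers and members) and rho = 0.383 (permutation p = 0.244). Without the 2 mice farthest from the median score r was 0.071, and within the 6 αChemR23 mice it was 0.869 (exact permutation p = 0.0167, not adjusted).

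Of the non-canonical subunits, Nfkb2 encodes the precursor p100 from which p52 is made. It was at 8.29, 8.12, 8.41, 8.47 and 8.38 in the hIgG1 mice, and at 8.20 to 8.52 (median 8.35) in αChemR23 mice, and 1 αChemR23 mouse lay above all hIgG1 mice. The log2 difference was 0.02 with a 95% interval of -0.17 to 0.21 (adjusted p = 0.955 from limma), and its sign turned with equal medians (-0.006), quantile normalization (-0.003) and array weights (-0.012). Its partner Relb, known for its role in dendritic cells and lymphoid organs, was at 7.36, 7.41, 7.71, 7.52 and 7.60 in the hIgG1 mice, and at 7.41 to 7.94 (median 7.65) in αChemR23 mice. The αChemR23 mice fell on both sides: mice 9, 10 and 15 lay above all hIgG1 mice, and mice 13 and 14 near their lower end. The means were 7.52 ± 0.14 (SD, n = 5) and 7.65 ± 0.23 (SD, n = 6), a log2 difference of 0.13 with a 95% interval of -0.13 to 0.38 (adjusted p = 0.718 from limma). Without αChemR23 mouse 9 it was 0.07.

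Nfkbia, which encodes IκBα, the inhibitor that NF-κB itself induces, had the largest difference and the widest spread. It was at 8.07, 8.46, 8.18, 8.06 and 8.01 in hIgG1 mice 3, 4, 6, 7 and 8. It was at 7.99, 7.56, 7.78, 7.93, 7.95 and 8.61 in αChemR23 mice 9, 10, 13, 14, 15 and 16. Thus 5 of the 6 αChemR23 mice lay below every hIgG1 mouse, and αChemR23 mouse 16 lay above all others. The gap between the highest of the 5 (7.99, mouse 9) and the lowest hIgG1 mouse (8.01, mouse 8) was smaller than the SD of 0.09 that counting alone gives for this gene. At least 5 of 6 αChemR23 mice lay below every hIgG1 mouse in 1.37% of the tested genes and above every hIgG1 mouse in 4.11%.

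The means of Nfkbia were 8.16 ± 0.18 (SD, n = 5) and 7.97 ± 0.35 (SD, n = 6), or 287 and 258 normalized counts, a log2 difference of -0.19 with a 95% interval of -0.53 to 0.16 (adjusted p = 0.693 from limma, exact permutation p = 0.316). Without αChemR23 mouse 16, the αChemR23 mean was 7.84 ± 0.18 (SD, n = 5), and the log2 difference was -0.31 with a 95% interval of -0.56 to -0.07 (unadjusted p = 0.0163, adjusted p = 0.338 from limma). It was -0.10 without αChemR23 mouse 10 and -0.11 without hIgG1 mouse 4 (adjusted p = 0.824 and 0.831 from limma). Mouse 16 also had the largest total, 715706 normalized counts, and the largest share of S100a8, which encodes an alarmin of neutrophils, at 21.3% of the total. Mouse 10, the lowest in Nfkbia, came second in the total and had an S100a8 share of 17.7%. The neutrophil score and Nfkbia had r = 0.216 over the 11 mice (permutation p = 0.523, adjusted p = 0.953 over the 64 relations) and rho = 0.255 (permutation p = 0.451). Without the 2 mice farthest from the median score, r was -0.275, and within the 6 αChemR23 mice it was 0.236 (exact permutation p = 0.706).

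Tnfaip3, which encodes A20, was at 7.78, 7.74, 8.03, 7.92 and 7.92 in the hIgG1 mice, and at 7.90 to 8.10 (median 7.96) in αChemR23 mice. The αChemR23 mice lay close together, above hIgG1 mice 3 and 4 and overlapping the other 3. The means were 7.88 ± 0.12 (SD, n = 5) and 7.98 ± 0.07 (SD, n = 6), a 1.08-fold difference with a 95% interval of 0.959 to 1.21 (adjusted p = 0.624 from limma). The log2 difference was 0.10, and 0.07 without hIgG1 mouse 4. The 2 induced inhibitors thus had differences of opposite sign (-0.19 for Nfkbia and 0.10 for Tnfaip3), neither of which passed.

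Ikbkb encodes IKKβ, the kinase that phosphorylates IκBα. It was at 9.69, 9.69, 9.66, 9.70 and 9.46 in the hIgG1 mice, and at 9.33 to 9.68 (median 9.55) in αChemR23 mice. Of the hIgG1 mice, 4 lay close together and mouse 8 stood below them, and no αChemR23 mouse reached the highest hIgG1 mouse. The means were 9.64 ± 0.10 (SD, n = 5) and 9.55 ± 0.13 (SD, n = 6), a log2 difference of -0.09 with a 95% interval of -0.25 to 0.07 (adjusted p = 0.690 from limma). Leaving out hIgG1 mouse 8 gave -0.14, and leaving out αChemR23 mouse 15 gave -0.05 (adjusted p = 0.649 and 0.899 from limma).

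**Figure D2:**
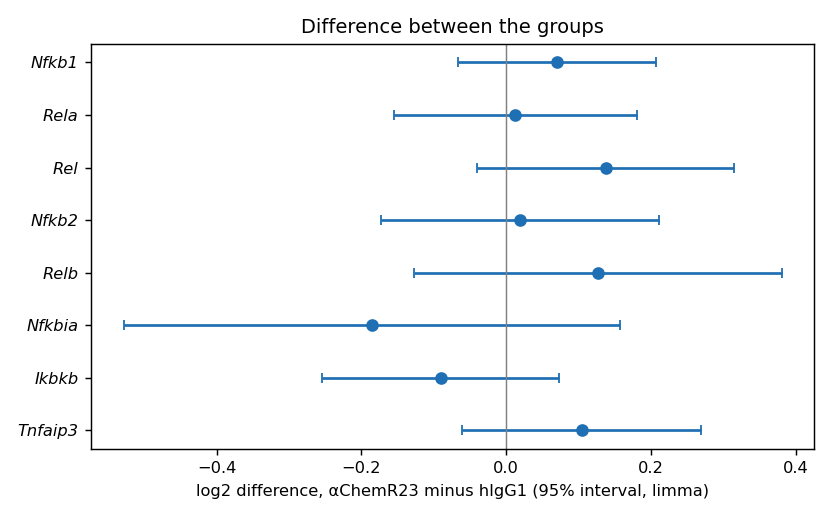
Log2 difference of each member between αChemR23 and hIgG1 mice (x axis, positive where higher in αChemR23 mice), with the 95% interval from limma over 5 and 6 mice. Every interval holds 0, from the narrow one of Nfkb1 (-0.07 to 0.21) to the wide one of Nfkbia (-0.53 to 0.16).

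The intervals bound the differences that these mice leave possible. For Nfkb1, Nfkb2 and Rela the upper bound was 1.13-fold to 1.16-fold higher in αChemR23 mice, and for Tnfaip3 1.21-fold and Rel 1.24-fold. For Relb it was 0.38 on the log2 scale. For Nfkbia the lower bound was 0.693 of the hIgG1 level and for Ikbkb 0.838. The opposite bounds were 1.12-fold higher for Nfkbia and 1.05-fold for Ikbkb, and 0.887 (Nfkb2) to 0.97 (Rel) of the hIgG1 level for the other members.

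On the log2 scale, most members varied less between mice than the median tested gene, and less than most of the genes nearest to them in level. The SD between mice within the groups was 0.08 (Nfkb1) to 0.29 (Nfkbia) on the log2 scale, with a median of 0.12, against 0.22 over the 657 tested genes. Among these, Nfkb1 had a lower SD than all but 5.48%, Tnfaip3 than all but 8.83% and Rel than all but 10.7%. The SD of Nfkbia exceeded that of 67.9% of all tested genes and of 90% of the 50 genes nearest to it in level, and that of Relb exceeded 42.9% of all. Against their own 50 nearest genes in level, the SD exceeded 6% for Rel, 8% for Tnfaip3 and 10% for Nfkb1. It exceeded 26% for Rela, 30% for Ikbkb, 32% for Relb and 34% for Nfkb2.

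Part of this spread is set by the number of counts. From a mean of 197 raw counts, counting alone gives Rel an SD of 0.10, and the measured SD was 1.02 times that. For Tnfaip3 (249 raw counts) the ratio was 1.05. At this depth, the spread of Rel and Tnfaip3 between mice of 1 group was thus hardly larger than counting error. Nfkb1 (761 raw counts) had a ratio of 1.59, Nfkb2 (332 raw counts) of 1.72 and Relb (197 raw counts) of 1.89. Rela had one of 2.06, Ikbkb (786 raw counts) of 2.27 and Nfkbia (274 raw counts) of 3.31. The median ratio was 1.81 over the members and 2.09 over all tested genes. Across the 11 mice, the highest level was 1.22 times the lowest for Nfkb1 and 2.08 times for Nfkbia.

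**Figure D3:**
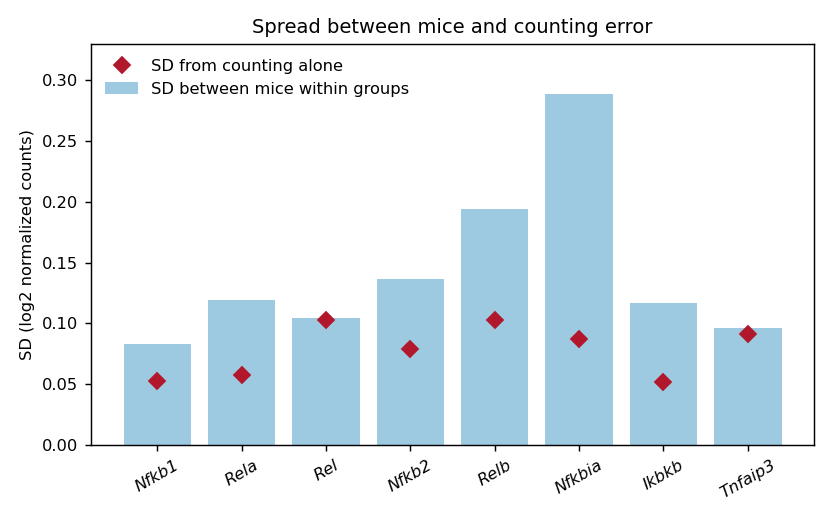
SD of each member between mice within the groups (bars, log2 normalized counts, pooled over 5 hIgG1 and 6 αChemR23 mice) and the SD expected from the number of raw counts alone (diamonds). The bars of Rel and Tnfaip3 end near their diamonds (ratios of 1.02 and 1.05), and that of Nfkbia reaches 3.31 times its diamond.

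Members of the same dimer or feedback were then compared across mice. Of the 28 pairs, 22 had a Pearson r above 0 over the 11 mice, with a median of 0.18 and a range of -0.33 to 0.80. By r, 2 pairs had an unadjusted permutation p under 0.05. Adjusted over the 28 pairs, 0 passed by r and 1 by rho. The closest pair were Nfkb1 and Rela, whose products form the canonical dimer of p50 and RelA (r = 0.804, permutation p = 0.00279, adjusted p = 0.0781; rho = 0.861, permutation p = 0.00123, adjusted p = 0.0344). Without the 2 mice farthest from the median of Nfkb1, r was 0.898. It was 0.914 within the 6 αChemR23 mice (exact permutation p = 0.0139) and 0.862 for deviations from the group means. With equal medians it was 0.704 (permutation p = 0.0150, adjusted p = 0.210) and with quantile normalization 0.798 (permutation p = 0.00315, adjusted p = 0.0882). Within the 6 αChemR23 mice, the endothelial score had r = 0.950 with Nfkb1 (exact permutation p = 0.0111) and 0.952 with Rela (exact permutation p = 0.00556). These p-values within 6 mice were not adjusted over the 64 relations of markers and members. Of all mice, αChemR23 mouse 9 had the highest endothelial score (11.71) and the highest Nfkb1 (9.66) and Rela (9.46). Among the hIgG1 mice, mouse 8 had the highest endothelial score (11.58), and its Nfkb1 (9.44) and Rela (9.24) were not the highest. The cause of these relations was not tested. Over the 11 mice the endothelial score had r = 0.449 with Nfkb1 (permutation p = 0.163, adjusted p = 0.742; rho = 0.536, permutation p = 0.0928) and 0.248 without the 2 farthest mice. With Rela it had r = 0.687 (permutation p = 0.0211, adjusted p = 0.675; rho = 0.679, permutation p = 0.0257) and 0.441 without them.

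The second pair were Nfkb2 and Tnfaip3 (r = 0.752, permutation p = 0.00643, adjusted p = 0.0900; rho = 0.688, permutation p = 0.0235, adjusted p = 0.329). Without the 2 mice farthest from the median of Nfkb2, r was 0.606, and within the 6 αChemR23 mice it was 0.891 (exact permutation p = 0.00139). Over the 11 mice, r was 0.737 with equal medians (permutation p = 0.0103, adjusted p = 0.210). With quantile normalization it was 0.646 (permutation p = 0.0306, adjusted p = 0.380). In αChemR23 mice the order of the 6 was the same for both genes, from mouse 13 at the lower end to mouse 16 at the upper. Tnfaip3 lay between 7.90 and 8.10 in these mice, where counting alone gives it an SD of 0.09. Of the 64 relations of markers and members over the 11 mice, 3 had an unadjusted permutation p under 0.05 by r and 0 an adjusted one. The NK cell score had r = 0.852 with Nfkb2 (permutation p = 0.00197, adjusted p = 0.126; rho = 0.861, permutation p = 0.00163; r = 0.823 without the 2 farthest mice, and 0.804 within the αChemR23 mice). With Tnfaip3 it had r = 0.618 (permutation p = 0.0432, adjusted p = 0.742; rho = 0.573, permutation p = 0.0733; r = 0.602 without the 2 mice, and 0.514 within the αChemR23 mice, exact permutation p = 0.319). The T cell score had r = 0.534 with Nfkb2 (permutation p = 0.0837, adjusted p = 0.742; rho = 0.761, permutation p = 0.00916). Within the αChemR23 mice it was 0.825 (exact permutation p = 0.0444, not adjusted). For Ikbkb, r with the epithelial and carcinoma score was -0.588 (permutation p = 0.0586, adjusted p = 0.742), and -0.916 within the αChemR23 mice (exact permutation p = 0.0167, not adjusted). Nfkb2 and Relb, the partners of the non-canonical dimer, had r = 0.15 over the 11 mice (permutation p = 0.645). Nfkbia had a negative r with Nfkb1 (-0.33), Rela (-0.31) and Relb (-0.31), at permutation p values of 0.331, 0.366 and 0.358.

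**Figure D4:**
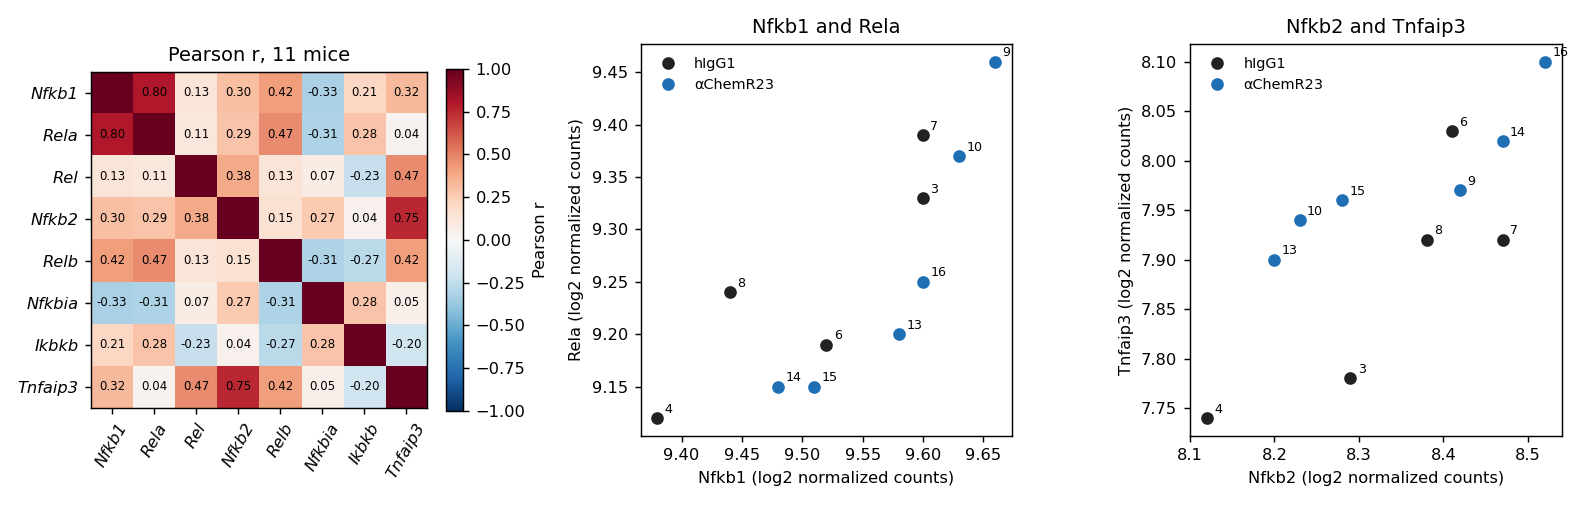
Pearson r between the members over 11 mice (left, color and number), and the levels of Nfkb1 against Rela and of Nfkb2 against Tnfaip3 (log2 normalized counts, 1 point per mouse with its number, hIgG1 black and αChemR23 blue). The 2 plotted pairs have the highest r (0.80 and 0.75). Within the hIgG1 mice r is 0.86 and 0.84, and within the αChemR23 mice 0.91 and 0.89. For deviations from the group means it is 0.86 and 0.83. At a like Nfkb2 level, Tnfaip3 is 7.78 in hIgG1 mouse 3 and 7.96 in αChemR23 mouse 15.

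For each member, the genes with the most similar pattern over the 11 mice were taken from the other 656 tested genes by Pearson r, as a description of genes selected for a high r, with no test. For Ikbkb it was Chuk (r = 0.882), which encodes IKKα, the other catalytic subunit of the IKK complex. Chuk had the same low mice, at 9.33 in hIgG1 mouse 8 against 9.54 to 9.63 in the other hIgG1 mice, and at 9.38 in αChemR23 mouse 15 against 9.53 to 9.65 in the other αChemR23 mice. Ikbkg, which encodes the regulatory subunit NEMO, had r = 0.226 with Ikbkb. For Nfkbia it was Tbk1 (r = 0.804), a kinase related to the IKKs. Nfkb1 was most like Map2k4 (r = 0.954), a kinase of the JNK cascade, and Nfkb2 most like Trp53 (r = 0.938), which encodes p53. Rel was most like Ets1 (r = 0.850), a transcription factor of lymphocytes and endothelium, Rela most like Pou2af1 (r = 0.849), a B cell coactivator, and Relb most like Cxcl15 (r = 0.849), a lung epithelial chemokine. Tnfaip3 was most like Nubp1 (r = 0.833), a housekeeping gene of the panel. Their second genes were Ccr2, Il2rb, Vhl, Nfkb1, Kdr and Ccl19, and Siglec1 and Prkcd for Nfkbia and Ikbkb, with r of 0.689 to 0.893.

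The genes around the core were counted in the same fit. Of 6 tested IKK partners and upstream kinases, 1 had an unadjusted p under 0.05, Ikbke, which encodes the IKK-related kinase IKKε and was lower under αChemR23, with means of 5.96 ± 0.17 (SD, n = 5) under hIgG1 and 5.62 ± 0.29 (SD, n = 6) under αChemR23 (adjusted p = 0.483 from limma). Chuk, Ikbkg, Tbk1 and Map3k7 had log2 differences of -0.05 to 0.03. Of 15 adaptors between receptors and IKK, 8 were lower under αChemR23, and 1 of these had an unadjusted p under 0.05. This was Card9, an adaptor of myeloid C-type lectin receptors (log2 difference -0.49, standard error 0.21, adjusted p = 0.483 from limma), a weak gene with a mean of 26.9 normalized counts. Nod1, a sensor of bacterial peptidoglycan, differed by -0.20 (standard error 0.11), and by -0.13 without hIgG1 mouse 3.

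Cyld, a deubiquitinase that restrains the pathway as A20 does, had means of 8.41 ± 0.10 (SD, n = 5) under hIgG1 and 8.57 ± 0.10 (SD, n = 6) under αChemR23 (log2 difference 0.16, unadjusted p = 0.0464, adjusted p = 0.483 from limma). The other tested inhibitors, Tollip and Irak3, differed by 0.08 and 0.00, the latter with a sign that turned with equal medians, quantile normalization, array weights, voom and without any 1 of hIgG1 mice 4 and 8 and αChemR23 mice 9, 10 and 16. Of 15 canonical receptors, 7 had a higher and 8 a lower mean, between -0.14 and 0.20, with 0 at an unadjusted p under 0.05, and Tlr4, the receptor of lipopolysaccharide, differed by 0.01. Of the 4 tested non-canonical receptors, 3 had a higher mean, with 0 at that p, and Ltbr, the lymphotoxin receptor, differed by 0.07. Of 12 ligands, 4 had a higher and 8 a lower mean, with 1 at an unadjusted p under 0.05. This was Tnfsf12, which encodes TWEAK, a ligand of the non-canonical pathway, and it was higher by 0.27 on the log2 scale (standard error 0.10, unadjusted p = 0.0149, adjusted p = 0.483 from limma). Tnf and Il1b, the main ligands of the canonical pathway, differed by 0.07 and -0.04.

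Of 21 tested canonical targets, 8 had a higher and 13 a lower mean, with a median log2 difference of -0.04 against 0.03 over all tested genes. At an unadjusted p under 0.05 was 1 of them, the anti-apoptotic Bcl2l1, with a lower mean in αChemR23 mice (log2 difference -0.49, standard error 0.14, adjusted p = 0.301 from limma). The adhesion molecules Icam1 and Vcam1 differed by 0.01 and 0.03, and the cytokine Csf3 and the prostaglandin synthase Ptgs2 by -0.20 and -0.18. Of 5 non-canonical targets, the homeostatic chemokines Cxcl12, Cxcl13, Ccl19 and Ccl21a had a higher mean, by 0.06 (Ccl21a) to 0.35 (Cxcl13), and Tnfsf13b, which encodes BAFF, a lower one (-0.06), with 0 at an unadjusted p under 0.05. Cxcl13 differed by 0.18 without hIgG1 mouse 7 and 0.23 without αChemR23 mouse 13. Over the mice left out, Ccl19 differed by 0.17 to 0.37 and Ccl21a by 0.03 to 0.10. Ccl19 was a weak gene, with a mean of 27.8 normalized counts. The median of the 5 non-canonical targets was 0.13. No gene of these lists (0) had an adjusted limma p under 0.05. Over all tested genes, 7.15% had an unadjusted p under 0.05 with a higher mean and 2.74% with a lower one. Tnf, Il1b and Tnfsf13b stood in more than 1 list. Cmklr1, which encodes ChemR23, had a log2 difference of 0.13 (adjusted p = 0.586 from limma).

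**Figure D5:**
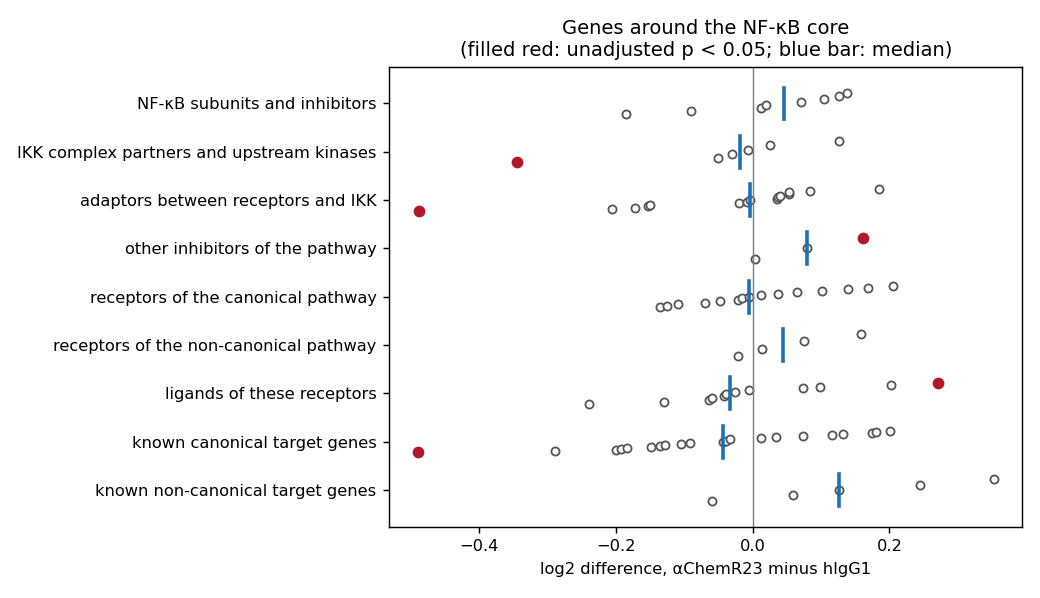
Log2 difference between αChemR23 and hIgG1 mice (x axis) of each tested gene of the NF-κB core and of the surrounding lists (1 point per gene, filled where the unadjusted p of limma was under 0.05), with the median of each list as a bar. The 8 members lie between -0.19 and 0.14, and 5 genes of the other lists are filled: Ikbke, Card9, Cyld, Tnfsf12 and Bcl2l1.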

How the data were processed

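RNA of 11 lungs, 1 per mouse, was counted on an nCounter Sprint. The authors deposited log2 normalized counts of 770 genes after normalization with the software of the platform, and compared groups with a count model. The 20 housekeeping genes averaged 9.01 in each mouse, and every level is relative to them. Values under 60 normalized counts, the lowest of a mouse left out, were all (100%) whole multiples of 0.865 to 1.11 normalized counts to within 0.1 count. This step gave the raw counts and the SD from counting, which leaves out other technical error.

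The log2 values were fitted with limma 3.58.1 (R 4.3.3, eBayes trend) for the 657 genes whose mean reached 20 normalized counts, and p-values were adjusted over all 657 (Benjamini-Hochberg, threshold 0.05). No count model was the main test. Exact two-sided permutation tests of single genes used all 462 splits (smallest p 0.00216), and correlations 100000 resamples, or all orders within 6 mice. The scripts were tested on simulated data.

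The members and lists were chosen with earlier results of these data known. The text names the members, up to 4 genes of a pathway list by smallest p, the 2 genes most like each member and Cmklr1. Chuk, Map3k7, Tlr4, Tnf, Il1b, Tnfsf13b, Icam1, Vcam1, Csf3 and Ptgs2 were added after their values were seen. The result of 1 gene is not reported here. The 64 relations of the marker scores with the members were also added then. Alternatives changed the filter (none, or a mean of 50), the pseudocount (10), the scaling (equal medians, quantiles, housekeeping genes), the weights, the variance model and the test (voom on recovered counts, exact Mann-Whitney, permutation), or left out a mouse. Sequences and their coordinates are those of RefSeq on GRCm38.p6.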

Additional observations from a re-analysis of the deposited data

Results flagged for a closer look

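Dixon's limit for a single high or low value was passed in 3 of 78 sets of values, each set being 1 gene in 1 group, and chance alone passes it in about 1 of 20. Among the members this was Ikbkb, whose level in hIgG1 mouse 8 (9.46 log2 normalized counts) stood below the range of the remaining hIgG1 mice (9.66 to 9.70). The same mouse had the highest hIgG1 level of Cmklr1, which was 10.60 there and 10.26 to 10.34 elsewhere in the group. For Nod1, αChemR23 mouse 15 was low with 8.52 (8.84 to 8.99 in the rest of the group).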

How the results depend on the processing

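By limma, 0 of all tested genes had an adjusted p under 0.05 and 65 an unadjusted one. The adjusted count was 1 with quantile normalization and 0 to 3 when 1 mouse was left out, with 3 without αChemR23 mouse 10. The unadjusted count was 41 by the exact Mann-Whitney test and 39 to 80 without 1 mouse, with 39 without αChemR23 mouse 9 and 43 without hIgG1 mouse 3. Equal medians gave 57 (22 higher, 35 lower) and quantile normalization 59 (26 higher, 33 lower), where the deposited scale gave 47 higher and 18 lower. The count of members at an unadjusted p under 0.05 was 0 to 1 without 1 mouse: Rel without hIgG1 mouse 8 and Nfkbia without αChemR23 mouse 16. The direction held under all alternatives for 6 of 8 members and 28 of 32 other genes. With equal medians, the log2 difference was -0.0059 for Nfkb2, -0.0127 for Rela, -0.0221 for Irak3 and -0.0114 for Tnfrsf12a. With quantile normalization it was -0.0033, -0.0301, -0.0162 and -0.0263 in the same order. Array weights gave -0.0123 for Nfkb2 and -0.0096 for Irak3, and voom -0.001 for Irak3. Without 1 mouse it ran from -0.0348 to 0.0528 for Nfkb2, -0.027 to 0.0464 for Rela, -0.0586 to 0.075 for Irak3, -0.0606 to 0.0647 for Tnfrsf12a, -0.075 to 0.027 for Cd40 and -0.105 to 0.0125 for Ikbkg. Of the 28 pairs, 0 passed when adjusted over the pairs, against 2 for deviations from the group means, 1 within αChemR23 mice, 1 without the 2 mice farthest from the median and 0 to 1 without 1 mouse (1 without hIgG1 mouse 8). For Nfkb1 and Rela, r was 0.8618 for deviations, 0.8979 without the 2 mice and 0.7494 to 0.8613 without 1 mouse. With equal medians and quantile normalization 0 pairs passed. For Nfkb2 and Tnfaip3 r was 0.8326 for deviations and 0.891 within αChemR23 mice. It was 0.737 with equal medians, 0.646 with quantile normalization, 0.606 without the 2 mice and 0.6147 to 0.807 without 1 mouse. No paired analysis was possible because no mouse number occurs in both groups. For all these changes, the cause was not tested. Few mice and 164 to 902 raw counts per member limit the precision.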
